A study of Homo sapiens with 6 samples.

Results

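The comparison set 1E8, the high-metastatic subclone of the PC-3M prostate cancer line, against 2B4, the low-metastatic subclone, across 3 matched conditions. Of the 6 arrays of the series, the 3 titled 1E8 were set against the 3 titled 2B4. PC-3M is an established human cell line derived from PC-3 prostate carcinoma cells, and each subclone is a single population of that line. Both subclones grew in RPMI medium with fetal bovine serum. One array of each subclone held cells without added ATP, one held cells given 100 µM ATP for 6 h, and one held cells given 100 µM ATP for 12 h. The labels do not say whether the cells without ATP were harvested at 6 h or at 12 h. Every combination of subclone and condition was 1 array, so condition served as the block and the spread was the departure of the 6 arrays from an additive model. The p-values therefore measure only the spread between these arrays, which may be technical.

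Subclones of one tumour line share an origin and most of their genome, so they are used to look for genes that go with the ability to spread. Leaving a tumour involves cell-cell junctions, integrins and the cytoskeleton, proteases that cut the matrix, and chemokines and growth factors that act on the tumour cells and on their surroundings. PC-3 cells and their derivatives keep epithelial keratins beside mesenchymal proteins such as vimentin.

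Values are normalized intensities in arbitrary units, as deposited, and 3 values of a subclone are always given in the order no ATP, 6 h, 12 h. A detection limit was set on each array at 3 background widths above the background peak. The limits lay between 43.0 and 52.4 on 5 arrays and at 29.1 on the 1E8 array without ATP, whose background was narrower and on which 11282 entries passed, against 9413 to 9916 on the others. Every array held the epithelial markers KRT8, KRT18, KRT19 and EPCAM above its limit, and none held the prostate markers KLK3, KLK2 or FOLH1 above it. Of the markers of other cell types, PECAM1 and CD33 passed on each of the 6 arrays, and VWF, CDH5, PTPRC, CD3D, CD14 and the other 11 on none. Correlations of log2 values over the tested genes were 0.983 to 0.991 within a subclone and 0.958 to 0.970 between subclones.

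Of 11133 tested genes, 1005 were higher and 878 lower in 1E8 at an adjusted p under 0.05 (limma with Benjamini-Hochberg adjustment), which is 9.03% and 7.89% of the genes tested and 16.9% together. At least 2-fold apart were 165 of the higher and 145 of the lower genes. All 1883 had the same sign in each of the 3 conditions, as had 5930 of the 11133 tested genes. The call rests on the mean of these 3 differences against their spread, so a shared sign is largely given by the selection. The 3 arrays of 1E8 lay above all 3 of 2B4 for 18.8% of the tested genes and below them for 17.2%. Subclone accounted for 60.5% of the variation over the tested genes, condition for 23.2% and the remainder of the model for 16.4%. Of the 1883, 435 were below the limit on every array of one subclone, and a fold of these genes is given as a lower bound where the values allow one.

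The number of calls depended on which arrays entered the fit, and leaving out an array removes its condition from the comparison. Without the pair of arrays without ATP, which includes the one with the narrower background, 1203 genes were higher and 1346 lower in 1E8. Without the 6 h pair 654 were higher and 495 lower, and without the 12 h pair 508 and 380, with 1 residual degree of freedom in each of these fits. The filter on dim entries also moved the counts. A gene could enter the test through 1 subclone alone, which 1185 genes did through 1E8 and 176 through 2B4. Among the 9772 genes above the limit in both subclones 672 were higher and 776 lower, with detection on at least 3 arrays 901 and 917, and with detection on all 6 arrays 726 and 815, so the larger number of higher calls did not hold under these filters. With no filter, over all 30835 names, no gene passed with limma, while the unadjusted p was under 0.05 for 2285 higher and 2282 lower genes. With values floored at 50 before the log, 266 were higher and 333 lower.

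The gene furthest above 2B4 among those detected on all 6 arrays was MSMP, which encodes PC3-secreted microprotein, a small secreted protein that binds the chemokine receptor CCR2. MSMP stood at 5276, 4884 and 4764 in 1E8 and at 639, 560 and 522 in 2B4. S100A4, a calcium-binding protein that interacts with myosin and is widely studied in metastasis, stood at 2783, 2699 and 2616 in 1E8 and at 526, 495 and 518 in 2B4. For both genes the 1E8 arrays lay far above the 2B4 arrays with no overlap, and the 3 conditions of one subclone lay close together. The log2 difference was 3.08 ± 0.10 (SE, adjusted p = 4.27e-05) for MSMP and 2.36 ± 0.10 (adjusted p = 0.000103) for S100A4.

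In the other direction RGS4, which speeds the shut-off of G proteins, stood at 83.7, 79.4 and 118 in 1E8 and at 1261, 839 and 981 in 2B4. ARHGDIB, an inhibitor that holds small GTPases in the cytosol and is known as a metastasis suppressor in bladder cancer, stood at 131, 46.8 and 93.0 in 1E8 and at 732, 575 and 814 in 2B4. The groups did not overlap. RGS4 was above the limit on all 3 arrays of 1E8, while the 6 h value of ARHGDIB in 1E8 lay close to the limit of 46.6. The log2 difference was −3.25 ± 0.16 for RGS4 (adjusted p = 0.000162) and −2.84 ± 0.17 for ARHGDIB (adjusted p = 0.000314).

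The promoters of these 4 genes are shown because they carry the largest differences in each direction among genes detected everywhere. Each sequence runs from 250 bases before to 50 after the annotated start in RefSeq (GRCh38.p14), 5′ to 3′ on the gene's strand, and capitals mark every CG dinucleotide, which reads the same on both strands. The windows are chr9:35754227-35754526 on the minus strand for MSMP, chr1:153545757-153546056 on the minus strand for S100A4, chr1:163068621-163068920 on the plus strand for RGS4 and chr12:14948847-14949146 on the minus strand for ARHGDIB.
MSMP: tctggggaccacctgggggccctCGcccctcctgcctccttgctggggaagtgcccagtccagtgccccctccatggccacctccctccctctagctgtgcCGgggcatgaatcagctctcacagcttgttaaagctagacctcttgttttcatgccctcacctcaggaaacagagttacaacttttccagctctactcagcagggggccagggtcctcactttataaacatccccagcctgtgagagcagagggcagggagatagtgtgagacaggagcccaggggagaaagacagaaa
S100A4: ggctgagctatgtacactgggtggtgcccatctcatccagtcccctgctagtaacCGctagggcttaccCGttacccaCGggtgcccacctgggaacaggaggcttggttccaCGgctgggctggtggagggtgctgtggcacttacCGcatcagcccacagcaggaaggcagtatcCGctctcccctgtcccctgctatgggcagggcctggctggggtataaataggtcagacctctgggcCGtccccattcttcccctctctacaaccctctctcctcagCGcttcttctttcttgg
RGS4: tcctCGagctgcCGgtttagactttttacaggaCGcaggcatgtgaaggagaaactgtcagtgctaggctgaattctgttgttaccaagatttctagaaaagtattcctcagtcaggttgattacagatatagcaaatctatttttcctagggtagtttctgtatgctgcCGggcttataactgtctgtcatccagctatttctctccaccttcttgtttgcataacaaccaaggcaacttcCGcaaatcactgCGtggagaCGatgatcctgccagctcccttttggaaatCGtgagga
ARHGDIB: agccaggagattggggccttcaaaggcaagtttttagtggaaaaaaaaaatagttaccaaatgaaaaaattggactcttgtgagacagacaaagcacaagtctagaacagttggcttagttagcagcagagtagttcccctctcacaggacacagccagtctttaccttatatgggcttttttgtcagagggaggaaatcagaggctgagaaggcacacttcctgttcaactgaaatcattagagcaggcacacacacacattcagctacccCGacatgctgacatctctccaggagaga

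The 4 windows hold few CG dinucleotides, with 2 in MSMP, 8 in S100A4, 8 in RGS4 and 1 in ARHGDIB. Over the 7507 tested genes with such a window the median was 27, and 8.01% of them held 8 or fewer. Among the genes called at least 2-fold higher in 1E8, 34.2% of 117 windows held 8 or fewer, and among those called at least 2-fold lower, 19.3% of 109. The letters TATAAA, on either strand, were in the windows of MSMP and S100A4 and not in those of RGS4 and ARHGDIB. They were in 5.36% of all 7507 windows, in 12.8% of those of the higher genes and in 10.1% of those of the lower genes. Among the 60 windows of lower genes not on X, 16.7% held TATAAA and 25% held 8 or fewer CG dinucleotides, so the order of higher and lower genes for TATAAA turns when X is left out. These shares are descriptions of the sequences, and no test was run on them.

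**Figure D1:**
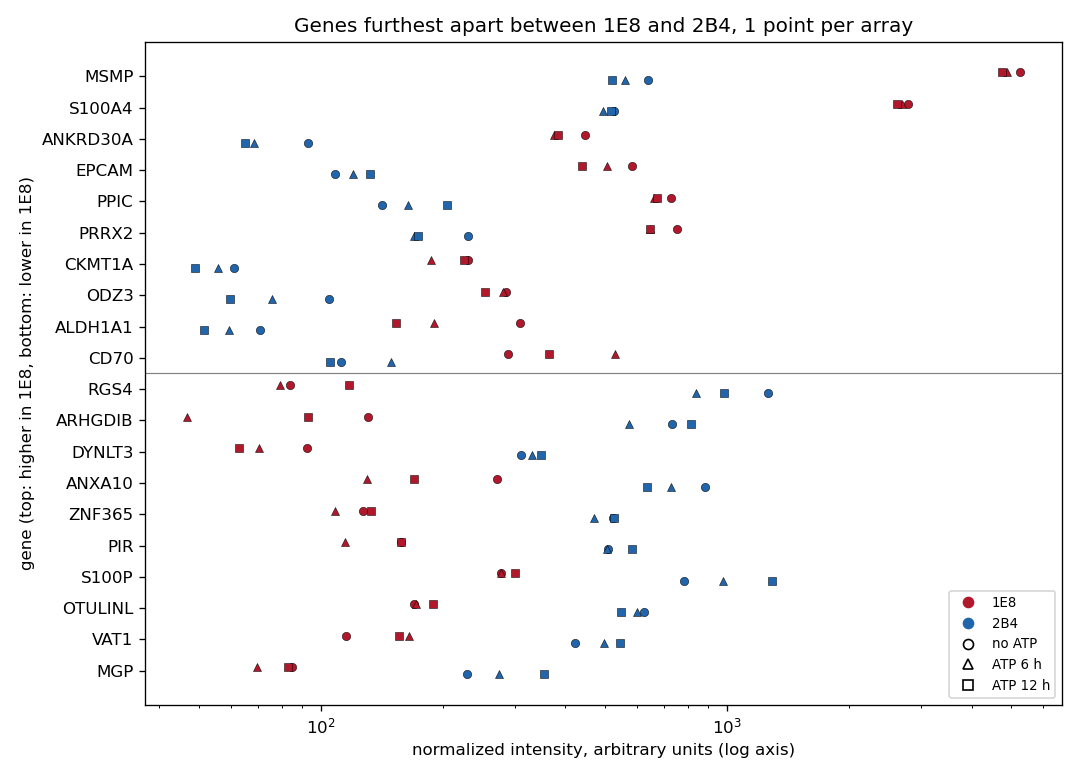
Normalized intensity (log axis, arbitrary units) of the 10 highest and 10 lowest genes in 1E8 against 2B4 among genes above the limit on all 6 arrays, 1 point per array, with colour for the subclone and shape for the condition. For each of the 20 genes the 3 points of 1E8 and the 3 of 2B4 do not overlap, as for MSMP (4764 to 5276 against 522 to 639).

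Other genes detected everywhere and furthest above 2B4 came from several classes. EPCAM, the epithelial cell adhesion molecule, stood at 584, 506 and 439 in 1E8 and at 108, 120 and 132 in 2B4. Its log2 difference was 1.94 ± 0.15 (adjusted p = 0.000684) and narrowed from 2.27 without ATP to 1.62 at 12 h. PRRX2, a paired homeobox factor of mesenchyme, stood at 755, 645 and 645 in 1E8 and at 230, 170 and 173 in 2B4. ALDH1A1, a retinaldehyde dehydrogenase used as a stem cell marker, stood at 308, 190 and 153 in 1E8 and at 71.0, 59.2 and 51.6 in 2B4. None of these groups overlapped, and in both subclones ALDH1A1 was dimmer on the arrays with ATP than on the array without. The other genes of this set were ANKRD30A (log2 difference 2.20), PPIC (1.93), CKMT1A (1.69, a mitochondrial creatine kinase with a near-identical neighbour copy, so its signal is uncertain), ODZ3 (1.62), CD70 (1.54), DDIT4 (1.495), CD33 (1.44), ALDOC (1.38), COL1A2 (1.37) and ABCC3 (1.37). CD33, a lectin of myeloid cells, was thus a leukocyte marker higher in 1E8, at 181, 176 and 182 against 62.5, 49.7 and 56.1, while PTPRC, CD14 and CSF1R were below the limit on every array.

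The genes furthest below 2B4 also came from several classes. S100P, a calcium-binding protein of epithelial tumours, stood at 278, 277 and 300 in 1E8 and at 783, 977 and 1291 in 2B4. ANXA10, a membrane-binding annexin, stood at 271, 130 and 169 in 1E8 and at 881, 730 and 634 in 2B4. MGP, a matrix protein that inhibits calcification, stood at 85.0, 69.6 and 82.9 in 1E8 and at 228, 275 and 354 in 2B4. All 3 were lower in 1E8 without overlap, by −1.75, −1.94 and −1.65 on the log2 scale. The set further held DYNLT3 (−1.94), ZNF365 (−1.92), PIR (−1.80), OTULINL (−1.66), VAT1 (−1.65), CCL26 (−1.61), FZD4 (−1.60), MSL3 (−1.53), HEY1 (−1.48) and IL7R (−1.46), and DYNLT3, PIR and MSL3 lie on chromosome X.

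Some genes were detected in one subclone alone. Above the limit on all 3 arrays of 1E8 and on none of 2B4 were 143 genes, of which 119 passed the test, and the reverse held for 32 genes, of which 31 passed. These genes were picked for being bright in one subclone and dim in the other, so passing is largely given by the selection. With the highest limit of the arrays applied to all 6 these counts were 138 and 87. At least 2-fold above the limit of the dim arrays were 27 genes in 1E8 and 17 in 2B4, against 21 and 16 with the common limit and 14 and 8 with a limit at 5 widths. MAGEA10, a cancer-testis antigen encoded on X, stood at 645, 611 and 594 in 1E8 and at −7.44, −6.87 and −1.01 in 2B4, at least 13.2-fold higher. Its values in 2B4 were all set to 0 before the log, so they add no spread to its test. CLRN3, a membrane protein of epithelia, was at least 9.82-fold higher in 1E8, NIBAN1 at least 5.98-fold, the glutamate transporter SLC1A3 at least 4.76-fold, the organic anion transporter SLCO1B3 at least 3.38-fold, RRAGD, a GTPase of amino acid sensing, at least 3-fold, and the secreted glycoprotein RELN at least 2.94-fold. SNRPN and SNURF, which share one imprinted transcript on chromosome 15 and so cannot be counted as separate genes, were at least 4.56-fold and 2.87-fold higher.

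Of the genes detected in 2B4 alone, SHISA2, a Shisa family membrane protein, stood at 1.40, 6.63 and 16.9 in 1E8 and at 582, 474 and 620 in 2B4, at least 13.6-fold lower in 1E8. PDGFRA, a receptor kinase of mesenchymal cells, stood at 0.27, −3.19 and 5.19 in 1E8 and at 238, 226 and 221 in 2B4, at least 5.59-fold lower. MAOA, the monoamine oxidase that breaks down serotonin and noradrenaline, stood at 3.65, −13.9 and −9.87 in 1E8 and at 213, 188 and 226 in 2B4, at least 5.10-fold lower. All 3 genes were at background in 1E8 in every condition. CRISPLD2 (at least 4.34-fold), SYTL4 (3.23), PUDP (2.69), PRSS35 (2.68), the cytokine IL1B (2.66), ZNF22 (2.60) and the kinase-inactive ephrin receptor EPHB6 (2.56) followed, and MAOA, SYTL4 and PUDP lie on X.

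The differences also followed the chromosomes. Of 319 tested genes on X, 188 were lower and 9 higher in 1E8, which is 58.9% and 2.82%, and the median log2 difference was −0.567. On chromosome 21, 36 of 106 genes were lower and 2 higher, with a median of −0.317. On chromosome 15, 107 of 280 genes were higher and 1 lower, with a median of 0.363. Over the genes of all other chromosomes the median was 0.014. The medians kept their sign in each condition, at −0.5, −0.536 and −0.623 on X, −0.312, −0.355 and −0.372 on 21, and 0.458, 0.354 and 0.357 on 15. These 3 chromosomes held 225 of the 878 lower genes and 118 of the 1005 higher ones. The counts were 215 lower on X, 45 lower on 21 and 120 higher on 15 without the pair without ATP, 142, 15 and 69 without the 6 h pair, and 117, 13 and 55 without the 12 h pair. Smaller shifts were seen on chromosomes 2 (median 0.184), 5 (0.167), 20 (0.152), 7 (0.12) and 4 (−0.126).

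**Figure D2:**
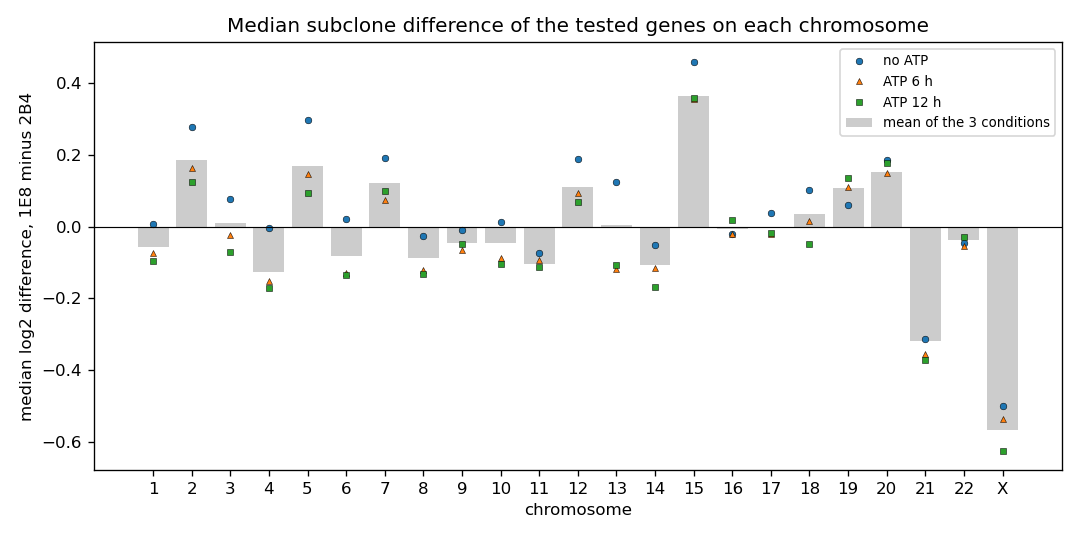
Median log2 difference, 1E8 minus 2B4, of the tested genes on each chromosome, with bars for the fit over all conditions and points for the single pair of arrays in each condition. Chromosome X (−0.567) and 21 (−0.317) lie lowest and chromosome 15 (0.363) highest, with the 3 points of each on the same side of 0.

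The shift ran along nearly the whole of these chromosomes. The tested genes were taken in genomic order in 363 groups of 25 or more neighbours, of which 37 had a median above 0.25 and 19 a median below −0.25. On X, 11 of 12 groups were below −0.25, and the lowest ran from GK to RBM10 with a median of −0.934 and 20 of 25 genes called lower. The exception ran from DLG3 to PGK1, with a median of −0.147. The longest stretch of consecutive tested genes called the same way held 14 genes on X: CHST7, SLC9A7, RP2, JADE3, NDUFB11, RBM10, UBA1, USP11, ARAF, TIMP1, ELK1, UXT, FTSJ1 and EBP. RP2 was at least 1.71-fold lower, and the log2 differences of the others ran from −1.33 to −0.62, SLC9A7 being above the limit on 1 array of 1E8. Genes of unlike function fell into it, such as UBA1, the enzyme that starts ubiquitin conjugation, ARAF, a RAF kinase, and TIMP1, an inhibitor of matrix metalloproteinases.

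On chromosome 15, 10 of 11 groups had a median above 0.25, the highest from GOLGA8A to NUSAP1 with a median of 0.590 and 16 of 25 genes called higher. On chromosome 21, 3 of 4 groups were below −0.25. Elsewhere the shifted groups covered a smaller part of the chromosome, and some lay side by side. On chromosome 7 the groups from PRKAR1B to EPDR1 had medians of 0.301, 0.405, 0.35 and 0.272, highest from RNF216 to AGR2. On 5 those from YTHDC2 to DELE1 had 0.324, 0.326, 0.338 and 0.284, highest from DDX46 to CXXC5. On 19 those from ZFP36 to BAX had 0.306, 0.317, 0.29 and 0.384, highest from AP2S1 to BAX. The group from SLX4IP to ACSS1 on 20 had a median of 0.364. Lower in 1E8 were the groups from THNSL1 to ZNF25 on chromosome 10, with a median of −0.420 and 11 of 25 genes called, from CHIC2 to CXCL8 on 4, with a median of −0.346 and 9 of 25 called, from ACLY to MPP3 on 17, with a median of −0.335 and 10 of 25 called, from BCAR1 to COTL1 on 16, with −0.276, and from WARS2 to BCL9 on 1, with −0.269. The group on 17 held 2 stretches of 4 consecutive called genes, VPS25, COA3, BECN1 and PSME3, and then RUNDC1, RPL27, IFI35 and VAT1.

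**Figure D3:**
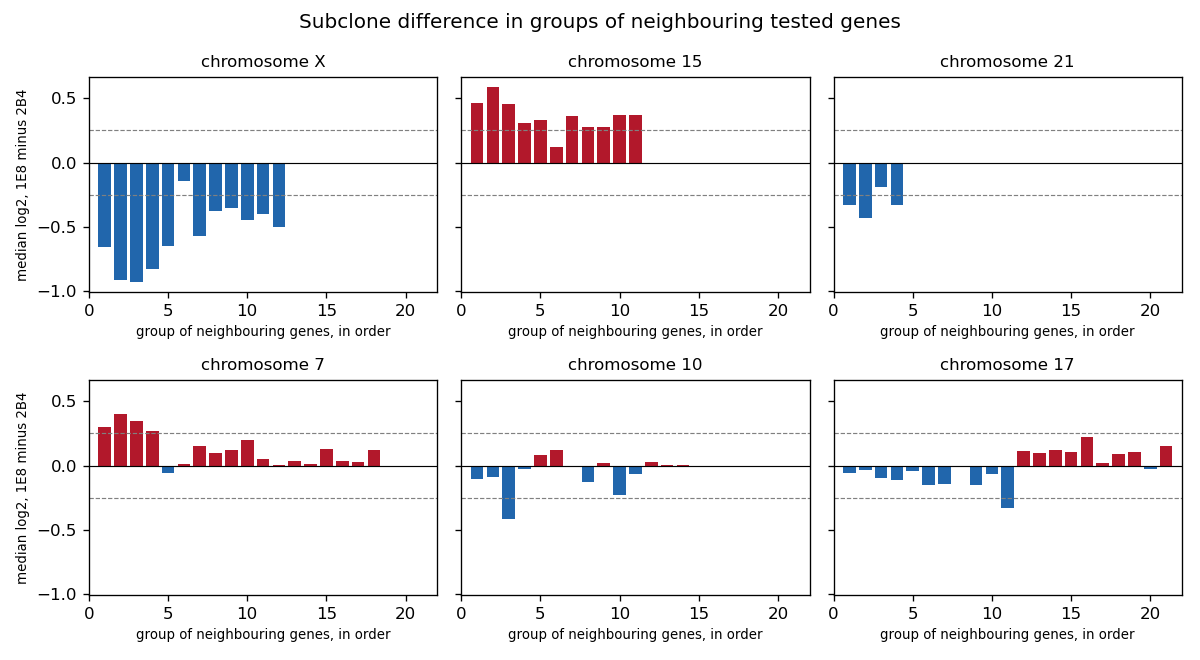
Median log2 difference, 1E8 minus 2B4, of groups of 25 or more neighbouring tested genes in genomic order along 6 chromosomes, with dashed lines at −0.25 and 0.25. Most groups of X lie below −0.25 and most of 15 above 0.25, while chromosomes 10 and 17 each show a single group below −0.25.

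Of 9 tested genes of epithelial cell-cell junctions, 4 were higher in 1E8 and none lower, with a list median of 0.344 against 0.014 over all tested genes. Of the 4, 2 were above the limit in 1E8 alone, and such genes enter the test only because they are brighter there. CLDN3, a tight junction claudin, stood at 92.2, 79.2 and 114 in 1E8 and at −0.64, 2.67 and 16.9 in 2B4, at least 2.01-fold higher. CLDN1 was above the limit on 2 arrays of 1E8 and none of 2B4 and was at least 1.40-fold higher, and TJP1, a tight junction scaffold on chromosome 15, was higher by 0.61. CDH1, which encodes E-cadherin, was below the limit on all 6 arrays and was not tested. In the desmosome and hemidesmosome list 4 of 12 were higher and 2 lower. Among the 8 above the limit in both subclones 2 were higher and 1 lower. ITGB4, the hemidesmosomal integrin chain, was at least 2.06-fold higher in 1E8, and DSC2, a desmosomal cadherin, was lower at 174, 177 and 189 against 393, 430 and 336. Of the keratins 2 of 6 were higher, or 1 of the 5 above the limit in both subclones, and KRT8 stood at 232, 399 and 410 against 175, 148 and 155. Only 2 of the 6 estimates were above 0, and the list median was −0.155. KRT18 (95.5, 98.1 and 111 against 115, 129 and 119) and KRT19 (1182, 1086 and 1458 against 1587, 1473 and 1667) were dimmer in 1E8 in each condition. Higher calls among epithelial junctions came to 5 without the pair without ATP and to 3 without either other pair, and those among desmosome and hemidesmosome genes to 1 without the 6 h pair and 2 without the 12 h pair. Of the keratins 1 was higher without the 12 h pair.

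The mesenchymal list split, with 4 of 13 members higher and 3 lower. CDH11, a mesenchymal cadherin, stood at 30.0, 17.2 and 41.9 in 1E8, above the limit on the array without ATP alone, and at 626, 1010 and 941 in 2B4, a log2 difference of −4.26 ± 0.22 (adjusted p = 0.000172). CDH2, which encodes N-cadherin, went the other way at 1700, 1839 and 1697 against 947, 1130 and 1162, as did COL1A2, a chain of type I collagen, at 570, 416 and 384 against 284, 138 and 111. The receptor kinase AXL was above the limit on the 3 arrays of 1E8, at 59.5, 70.2 and 63.4, and on none of 2B4, and was at least 1.37-fold higher. VIM did not pass, with a log2 difference of −0.03 ± 0.11 (adjusted p = 0.865). Of 8 tested transcription factors of the epithelial-mesenchymal transition, PRRX2 and TCF4 were higher and SNAI2 was lower, at 151, 85.4 and 110 against 196, 175 and 204. The counts of the mesenchymal genes without a pair were 4 or 5 higher and 3 lower, while of the EMT transcription factors none was lower without the 6 h pair or the 12 h pair.

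Cytoskeletal genes that follow SRF and YAP were lower in 1E8 in 5 of 20 cases and higher in 1, with a median of −0.276. Of the lower ones, FHL1 (−1.36) and FLNA (−0.97), which encodes the actin cross-linker filamin A, lie on X, and VCL, CNN2 and DAAM1 do not. Without the genes of chromosomes X, 15 and 21 the counts were 3 lower and 1 higher of 17. Of 9 integrin genes 1 was higher and 2 lower: ITGAV by 0.66, and ITGA2 and ITGA5 each by −0.62. Of 14 tetraspanins 1 was higher and 4 lower. Of SRF and YAP targets 9 were lower without the pair without ATP and 3 without either other pair, and of tetraspanins 2 without the 6 h pair and 1 without the 12 h pair. None of the integrins was lower without the 12 h pair.

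Genes that cut or protect the matrix did not move in one direction. Of 19 tested matrix proteases and inhibitors 3 were higher and 4 lower. MMP1, the interstitial collagenase, stood at 182, 134 and 101 in 1E8 and at 238, 189 and 178 in 2B4, and the groups overlapped across conditions while each pair had 1E8 lower. TIMP1 stood at 1384, 1421 and 1555 against 2892, 2569 and 3028, without overlap. In the plasminogen activator list 3 of 11 were higher and 1 lower. The activators PLAT (545, 624 and 759 against 330, 277 and 250) and PLAU (757, 705 and 680 against 348, 395 and 466) were both higher in 1E8, by 1.12 and 0.81, and the inhibitor TFPI2 was at least 2.60-fold higher. SERPINB5, which encodes maspin, was lower by −0.48. Of 19 basement membrane and collagen genes 4 were higher and none lower, among them THBS1, a matrix glycoprotein on chromosome 15, at least 2.38-fold higher, and LAMA5 by 0.46. Of these 4, 3 entered the test through 1E8 alone, where they are brighter. Among the 13 genes of this list above the limit in both subclones 1 was higher. Of 12 serine and cysteine protease inhibitors 5 were higher and 3 lower, with SERPINB7 at 335, 509 and 425 against 48.1, 94.0 and 96.8. Of the matrix proteases and inhibitors 1 was lower without the 6 h pair or the 12 h pair, and the lower call of the plasminogen activator system was lost in both cases. Of the basement membrane and collagens 2 were higher without the 6 h pair or the 12 h pair, and 2 were lower without the pair without ATP.

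Of 19 tested metastasis suppressors 3 were lower and 2 higher in 1E8, with a median of −0.201. Beside ARHGDIB, TXNIP, an inhibitor of thioredoxin, was lower by −0.83 and BRMS1, a repressor subunit, by −0.52. CD9, a tetraspanin, went the other way at 230, 232 and 211 in 1E8 and at 33.0, 47.7 and 58.8 in 2B4, higher by 1.96 ± 0.15 (adjusted p = 0.000801). NME1 did not pass, with a log2 difference of 0.18 ± 0.10 (adjusted p = 0.264), and neither did CD44, at −0.42 ± 0.12 (adjusted p = 0.0561). Without the pair without ATP, 5 metastasis suppressors were lower and CD44 passed at −0.53, and without either other pair 2 were lower.

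Of 26 chemokines and their receptors 7 were tested, and 5 of these were higher in 1E8 and 1 lower. CXCL1, CXCL16 and CXCL2 entered the test through 1E8 alone, where they are brighter, so the share is no evidence about the list. Among the 4 members above the limit in both subclones 2 were higher and 1 lower. CXCL8, which attracts neutrophils, stood at 210, 757 and 271 in 1E8 and at 43.1, 133 and 57.8 in 2B4, where the array without ATP was below its limit. Each subclone had its highest CXCL8 value at 6 h, and the log2 difference was 2.09 ± 0.13 (adjusted p = 0.000312). CXCL1, which acts on the same receptor CXCR2, stood at 261, 377 and 175 in 1E8 and at 7.60, 6.21 and 6.74 in 2B4, at least 5.53-fold higher. CCL2, a monocyte chemokine that also binds CCR2, stood at 554, 345 and 323 against 154, 157 and 133. CXCL16 was at least 2.01-fold higher, and CXCL2 passed the test while above the limit on 1 array of 1E8 alone. The exception was CCL26, an eotaxin, at 51.2, 72.1 and 81.0 in 1E8 and at 186, 231 and 310 in 2B4. In the interleukin list 4 of 11 were lower and 1 higher, and IL7R stood at 72.5, 185 and 105 against 229, 448 and 377. Of 16 NF-kB and TNF signalling genes 2 were higher, NFKBIZ by 0.98 and TNFAIP8, which was above the limit on the 1E8 array without ATP alone, and none lower. The higher share of this list was 12.5%, against 9.03% over all tested genes. Without the pair without ATP 4 of the NF-kB and TNF signalling genes were higher and without the 12 h pair 1. The chemokines and their receptors had 5 higher and 1 lower call also when any 1 pair was left out.

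**Figure D4:**
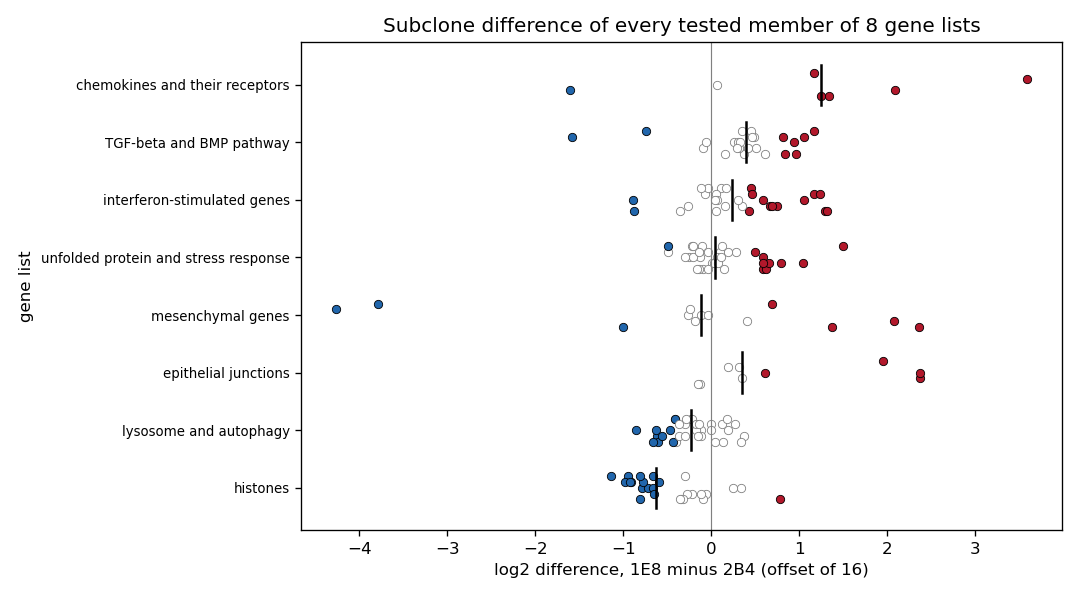
Log2 difference, 1E8 minus 2B4, of every tested member of 8 gene lists, with filled points for genes past the threshold, open points for the others and a black bar at the list median. The chemokines lie highest (median 1.245, or 1.007 with the genes above the limit in 1E8 alone at their bound) and the histones lowest (median −0.625), and the mesenchymal genes spread to both sides, from CDH11 at −4.26 to S100A4 at 2.36.

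In the TGF-beta and BMP list 6 of 24 were higher and 2 lower, and 20 of the 24 estimates were above 0, with a median of 0.395. Over all tested genes 51.9% of the estimates were above 0. Without the genes of chromosomes X, 15 and 21, 4 of 22 were higher and 2 lower, with a median of 0.359. SMAD3, which carries the TGF-beta signal to the nucleus, stood at 203, 161 and 191 in 1E8 and at 64.2, 81.0 and 76.3 in 2B4, higher by 1.16, and it lies on chromosome 15 as does the inhibitory SMAD6 (0.96). FST, which binds activins, stood at 1994, 2184 and 1800 against 1046, 1065 and 761. NOG, a secreted BMP antagonist, was at least 2.30-fold lower in 1E8, and the pseudoreceptor BAMBI was lower by −0.74. In the WNT list 5 of 20 were higher and 2 lower. Through 1E8 alone entered 3 of the 5, and among the 14 above the limit in both subclones 2 were higher and 1 lower. DKK1, a secreted WNT inhibitor, stood at 2452, 2216 and 2011 against 1335, 1466 and 894, WNT5A at 105, 108 and 58.1 against 24.9, 50 and 15.3, and the receptor FZD4 at 128, 111 and 116 against 409, 431 and 339. In the Notch and Hedgehog list 4 of 11 were higher and 1 lower: the ligand JAG2 was at least 1.70-fold higher, LFNG, HES6 and HES1 were higher by 0.97, 0.73 and 0.62, and the target gene HEY1 was lower at 162, 99.2 and 137 against 574, 255 and 411. Higher calls in the TGF-beta and BMP pathway were 10 without the pair without ATP, 7 without the 6 h pair and 5 without the 12 h pair, and those in the WNT pathway 4, 5 and 2. In the Notch and Hedgehog pathway 2 were lower without the pair without ATP.

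Of 21 receptor kinases and their ligands 3 were higher and 2 lower, and beside AXL its ligand GAS6, above the limit on 1 array, and its relative TYRO3, on chromosome 15, were the higher ones. The shares of this list were 14.3% higher and 9.52% lower, against 9.03% and 7.89% over all tested genes. Among the 17 above the limit in both subclones 1 was higher and 1 lower. The EGF receptor ligand TGFA was higher by 0.60 and the receptor inhibitor ERRFI1 by 0.62. Of 11 angiogenic factors 4 were higher and 1 lower, with VEGFC at 557, 425 and 431 in 1E8 and at 310, 276 and 173 in 2B4. For the handling of extracellular ATP, NT5E, which makes adenosine from AMP at the cell surface, stood at 88.9, 115 and 117 in 1E8 and at 245, 293 and 337 in 2B4, lower by −1.32 ± 0.11 (adjusted p = 0.000864). Of 3 tested P2 receptors P2RY2 passed, at 30.7, 26.6 and 33.0 against 12.5, 7.74 and 14.7, but only the 1E8 array without ATP was above its limit. P2RX7 was below the limit on all 6 arrays. Of the angiogenic factors 2 were higher and none lower without the 12 h pair, and of the receptor kinases and their ligands 4 were lower without the pair without ATP.

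Interferon-stimulated genes were higher in 1E8 for 12 of 28 tested members and lower for 2, with a median of 0.231, or 0.132 with genes above the limit in 1E8 alone at their bound. Such genes made up 4 of the 12. IFITM3, which blocks virus entry, stood at 991, 927 and 896 in 1E8 and at 420, 368 and 335 in 2B4. IFI44 was at least 2.21-fold higher, IFIT2 stood at 211, 339 and 163 against 107, 99.6 and 99.6, and OAS1, which makes oligoadenylates on sensing double-stranded RNA, at 294, 336 and 453 against 194, 215 and 234. The 2 lower members were GBP2 (−0.88) and IFI35 (−0.89). STAT2 and ISG15 did not pass. Of the interferon-stimulated genes 11 were higher without the pair without ATP, 9 without the 6 h pair and 7 without the 12 h pair, with the same number, 2, lower each time. Of 17 class I antigen presentation genes 3 were higher and none lower, among them the peptide transporter genes TAP1 and TAP2, at least 1.37-fold and 1.22-fold. TAP1 and TAP2 entered the test through 1E8 alone, and among the 15 above the limit in both subclones 1 was higher.

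In the unfolded protein and stress response list 9 of 34 were higher and 1 lower, with a median of 0.046. DDIT4, an inhibitor of mTORC1 signalling, stood at 637, 544 and 719 in 1E8 and at 244, 186 and 212 in 2B4. ATF4, the factor that drives amino acid response genes, was higher by 0.58, as were its target genes TRIB3 (0.58) and ASNS (0.59). PHGDH, the first enzyme of serine synthesis, went the other way at 3725, 3549 and 3572 against 5596, 4563 and 5217. Of 13 circadian clock genes 4 were higher and none lower, namely NPAS2, CRY1 and BHLHE41 by 0.42 to 0.82 and BMAL1, which was above the limit on 2 arrays of 1E8 and none of 2B4. Of 36 hypoxia and glycolysis genes 6 were higher and 3 lower, with ALDOC, an aldolase, at 716, 651 and 753 against 280, 245 and 262 and EPAS1, a hypoxia-inducible factor, at 911, 1202 and 1054 against 474, 589 and 541. The shares of this list were 16.7% higher and 8.33% lower, against 9.03% and 7.89% over all tested genes. In the unfolded protein and stress response list 9 were higher without the pair without ATP, 5 without the 6 h pair and 3 without the 12 h pair, and in the hypoxia and glycolysis list 8, 3 and 2.

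Lysosome and autophagy genes showed only lower calls, 9 of 34, with a median of −0.227. GLA, an alpha-galactosidase, and LAMP2, a lysosomal membrane protein, lie on X and were lower by −0.86 and −0.63. Without X, 15 and 21 there were 7 of 32 lower, among them the cholesterol exporters NPC1 (443, 521 and 435 against 558, 772 and 780) and NPC2, the sialidase NEU1, a proton pump subunit gene, ATP6V0D1, and BECN1. Of 33 cholesterol and fatty acid genes 7 were lower and 1 higher. NSDHL, EBP and ACSL4 lie on X and LSS on 21, and without these chromosomes 3 of 29 were lower and 1 higher. Among NRF2 targets and detoxification genes 6 of 38 were lower and 4 higher: GSTP1, a glutathione transferase, was lower by −0.76, and the exporter ABCC3 was higher by 1.37. Lower calls among lysosome and autophagy genes were 9 without the pair without ATP but 4 without the 6 h pair and 1 without the 12 h pair, and those of cholesterol and fatty acid synthesis were 10, 3 and 2. Higher calls of NRF2 targets and detoxification genes were 2 without the 6 h pair or the 12 h pair.

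Histone genes had the largest share of lower calls among the lists with at least 7 tested members. Of 26 tested, 14 were lower in 1E8 and 1, MACROH2A2, was higher, with a median of −0.625, and none lies on X, 15 or 21. H2BC21 stood at 73.5, 58.5 and 74.8 in 1E8 and at 143, 146 and 237 in 2B4. H4C8 stood at 159, 146 and 146 in 1E8 and at 270, 305 and 323 in 2B4. H1-2, a linker histone, stood at 197, 160 and 203 in 1E8 and at 324, 322 and 352 in 2B4. All 3 were lower without overlap, by −1.14, −0.92 and −0.79. H4C14, H2AC18, H4C15, H2AC19, H2BC21 and H2AC20 are consecutive tested neighbours on chromosome 1. Histone genes of one class are close to identical, so a probe may read several of them and the 14 are not separate observations. Of the histones 17 were lower without the pair without ATP, 12 without the 6 h pair and 9 without the 12 h pair.

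Genes of the cell cycle differed little. Of 48 genes of G1/S and DNA replication none was higher and 3 were lower, and 2 of these 3, POLA1 and CHAF1B, lie on X and 21. Of 52 genes of G2/M and mitosis 2 were higher, NUSAP1 and BUB1B on chromosome 15, and 2 lower, KIF4A on X and NUF2. Of 77 cytosolic ribosomal protein genes 3 were higher and 2 lower, of 73 oxidative phosphorylation genes 6 and 1, of 39 proteasome genes 2 and 4, and of 28 heat shock genes 0 and 1. These shares lay at or below those over all tested genes, except for the lower calls of the proteasome list. Without the 6 h pair none of the oxidative phosphorylation genes was higher and 1 proteasome gene was lower, and without the 12 h pair 2 proteasome genes were lower and none of the G2/M and mitosis or ribosomal protein genes was higher. Without the pair without ATP 5 genes each of G1/S and of G2/M were lower.

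**Figure D5:**
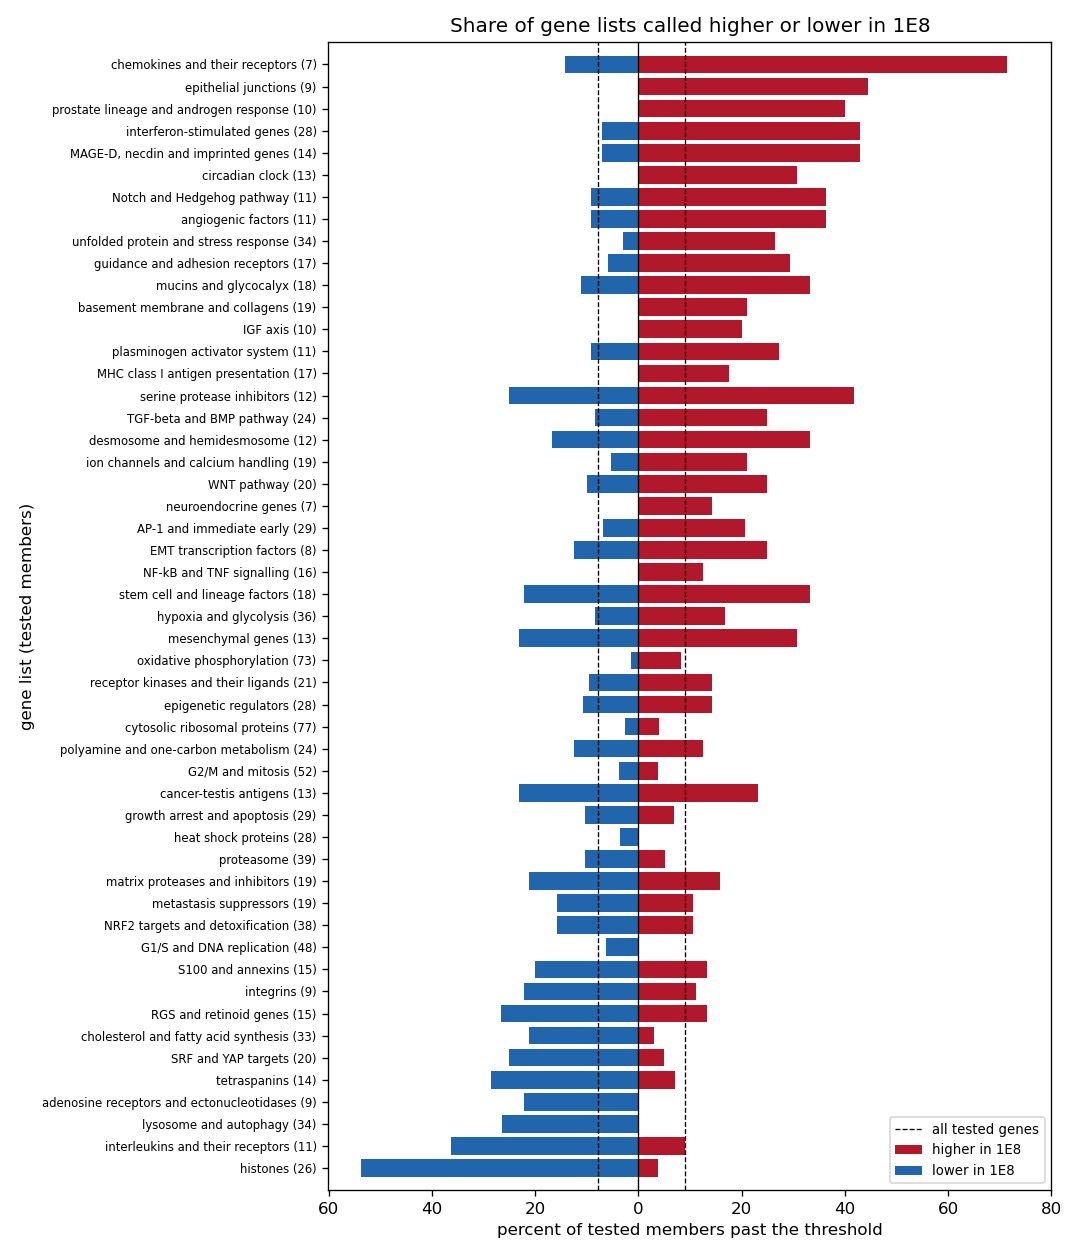
Percent of the tested members of gene lists with at least 7 tested members that were called higher (right) or lower (left) in 1E8, with dashed lines at the shares over all tested genes (9.03% and 7.89%). Chemokines lie at the top with 5 of 7 higher, of which 3 entered through 1E8 alone, histones at the bottom with 14 of 26 lower, and the ribosomal and cell cycle lists stay inside the dashed lines.

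Of lineage genes, HOXB13, a prostate homeobox gene, stood at 911, 628 and 753 in 1E8 and at 652, 402 and 421 in 2B4, so the groups overlapped. TFF3, a secreted trefoil peptide, stood at 7578, 5763 and 6478 against 3210, 2833 and 3014. Of 10 prostate lineage and androgen response genes 4 were higher and none lower, but only 5 estimates were above 0, with a median of 0.087. Among the 9 above the limit in both subclones 3 were higher and the median was −0.014. Higher calls of this list were 3 without the 6 h pair and 2 without the 12 h pair. ENO2, a neuronal enolase, was at least 2.71-fold higher in 1E8 and was the only call among 7 neuroendocrine genes. Of 14 imprinted and MAGE-D genes 6 were higher and 1 lower. Through 1E8 alone entered 4 of the 6, among them SNRPN and SNURF, which share one transcript. Among the 9 above the limit in both subclones 2 were higher and 1 lower. The imprinted neighbours SGCE (720, 717 and 650 against 277, 296 and 334) and PEG10 (248, 257 and 208 against 118, 148 and 155) were both higher. Of 13 cancer-testis antigens 3 were higher and 3 lower, the lower ones LAGE3, MAGEA6 and CTAG1A being on X, where MAGEA6 and CTAG1A have near-identical copies. The 3 higher ones entered the test through 1E8 alone, where they are brighter. Among the 9 antigens above the limit in both subclones none was higher and 3 were lower. Without the 6 h pair or the 12 h pair 1 of the cancer-testis antigens was lower, and without the 6 h pair 2 of the MAGE-D, necdin and imprinted genes.

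The subclone difference was also compared with ATP (mean of 6 h and 12 h) and without it. A single gene passed, LOC100132761, a placeholder name, at 3.23 on the log2 scale (adjusted p = 0.0447, with 1 residual degree of freedom). At an unadjusted p under 0.05, 610 genes had a positive change, with 1E8 higher relative to 2B4 with ATP than without, and 1475 a negative one. The count depended on the settings and ran from 0 with another offset to 748 with a variance trend. None of the other named genes passed. ID1, a BMP target, stood at 527, 744 and 636 in 1E8 and at 686, 395 and 323 in 2B4, so that 1E8 was lower without ATP and higher with it, a change of 1.28 (adjusted p = 0.127). BMP6, a BMP ligand, stood at 183, 124 and 129 in 1E8 and at 58.3, 105 and 110 in 2B4, a change of −1.22 (adjusted p = 0.138). Every such change rests on one array without ATP in each subclone, and the 1E8 array without ATP is the one with the narrower background; its part in these changes was not tested.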

How the data were processed

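The 6 arrays of both subclones were analysed. The intensity values were used as deposited by the authors, 34594 entries on each array. How they were normalized and on which build is not given in the sources used here; 24.0% to 25.5% of values lay below 0 and array means were 193 to 194. A table with 6 columns of signals whose names match no sample was not used here. With 6 arrays, their number limits the precision.

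After values below 0 were replaced by 0, limma 3.58.1 in R 4.3.3 fitted log2(intensity + 16) as subclone plus condition (2 residual degrees of freedom), with Benjamini-Hochberg adjustment over 11133 genes above the limit on at least 1 array, 1 entry per gene, the brightest. An added term gave the difference with ATP minus without. Log2 differences understate the change of dim genes. Names were matched to RefSeq symbols (GRCh38.p14): 17757 current, 3303 older, 13534 unmatched. The fit was tested on simulated data. Named genes are the 15 highest and 15 lowest called genes detected on 6 arrays, the 10 largest bounds each way, up to 4 called genes of a list, the 5 highest and 5 lowest changes with ATP, and genes fixed by name; the neighbours of a stretch and further list members were named after their values were seen. The members and lists were chosen with earlier results of these data known. The sources used here give no slide or scan, so batches were not tested. Some genes and 1 list are not reported here. Alternatives were other offsets, scalings, filters, variance models and leaving out arrays. Chosen after seeing the data were the chromosome medians under each alternative, the list counts without chromosomes X, 15 and 21, 1 common limit for all arrays, and counts over genes above the limit in both subclones.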

Additional observations from a re-analysis of the deposited data

Results flagged for a closer look

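The subclone difference with ATP (mean of 6 h and 12 h) was set against the difference without it, and 9 genes are listed here. For LOC100132761, an unannotated placeholder name, the difference moved by 3.23 on the log2 scale and passed (limma adjusted p = 0.0447). Its values were 38.1, 278 and 304 in 1E8 and 272, 163 and 155 in 2B4, so the low value of 1E8 without ATP sets it apart. In the other 8 genes 1E8 lay on one side of 2B4 without ATP and on the other side in both ATP pairs, and none passed the test of that change.

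Higher in 1E8 with ATP and lower without were PRIM2, a primase subunit of DNA replication, with a change of 1.48 (limma adjusted p = 0.156), PPID, a cyclophilin, with 1.46 (0.113), ID1, an inhibitor of DNA binding, with 1.28 (0.127), NOL10, a nucleolar protein, with 1.25 (0.156), and CLOCK, a circadian factor, with 1.11 (0.156). Lower in 1E8 with ATP and higher without were MYL12A, a myosin light chain, with −1.27 (0.132), RNASEH2B, a subunit of ribonuclease H2, with −1.23 (0.149), and LRRFIP1 with −1.22 (0.138). Each change rests on 2 arrays without ATP. The background of the 1E8 array among them was narrower, with a limit of 29.1 against 43.0 to 52.4 elsewhere, and its part in these changes was not tested. On that array PPID stood at 30.6 and NOL10 at 34.5, above its own limit but below the limits of all other arrays.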

How the results depend on the processing

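Of the 174 named genes that passed, none changed sign, which is given by construction where arrays were left out. Their calls were lost for 174 of them with no filter on dim entries, 95 with values floored at 50, 41 without a 12 h array, 25 without a 6 h array and, among those tested, at most 8 under each other alternative. Stricter filters left some of the 174 untested. Tested were 125 with detection on all 6 arrays, 167 with at least 3 and 169 with the limit at 5 widths, and these passed. Against 1005 higher and 878 lower genes, the counts were 0 and 0 with no filter (2285 and 2282 at an unadjusted p under 0.05) and 266 and 333 with the floor. On the 4 ATP arrays alone 1346 were lower, and leaving out each array gave 508 to 1203 higher and 380 to 1346 lower. Each other alternative stayed within 1.5 times, but lower calls outnumbered higher ones with detection on all 6 arrays (726 higher, 815 lower) and on at least 3 (901, 917). Of the 1883, 1771 kept their sign with the floor. The cause of these changes was not tested. With no filter the adjustment ran over 30835 names. Each fit without an array had 1 residual degree of freedom, also the fit without the pair without ATP, where the calls rose. The single gene whose difference changed with ATP became 0 with offset 4, quantile normalization, no filter or the floor, 8 after scaling to 1 median, 21 with the limit at 5 widths, 36 and 285 with detection on at least 3 and on all 6 arrays, 361 with offset 50 and 748 with a mean-variance trend. ISG15 and VIM, which had not passed, changed sign without single arrays. ISG15 was at −0.03 to 0.26 and VIM at −0.09 to 0.01. CD44 passed under several alternatives, as with offset 50 (−0.41). The chromosome medians, an alternative chosen after seeing the data, stayed between −0.627 and −0.462 on X, 0.266 and 0.403 on 15 and −0.356 and −0.251 on 21, except with no filter (−0.036, 0.098 and −0.05).

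A gene below the limit on every array of a subclone has only a bound there. With 1 array per subclone and condition, culture, hybridization and condition cannot be told apart. The alternative from non-normalized signals was not run, since no column name matched a sample. The arrays are paired by condition, which is the block of the reported fit, and no further pairing by replicate number exists, since each subclone and condition has replicate 1 alone; without the block 881 genes were higher and 823 lower.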
